A study of Homo sapiens with 38 samples.

Results

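Tight junctions seal neighbouring epithelial cells to each other, and 8 genes that build them are described here across human prostate cell lines: CLDN1, CLDN3, CLDN4, CLDN7, CLDN11, OCLN, TJP1 and F11R. They were taken by symbol from 60252 genes, and all 8 were found in both expression tables, as ENSG00000163347.5_1, ENSG00000165215.6_2, ENSG00000189143.9_2, ENSG00000181885.18_2, ENSG00000013297.10_2, ENSG00000197822.10_1, ENSG00000104067.16_2 and ENSG00000158769.17_2 in that order. The study asked what a risk region for prostate cancer at 7p15.2, beside the HOXA genes, does, by deleting it and by overexpressing HOXA13. RNA-seq was made from 36 libraries.

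In RWPE-1, an immortalized line from normal prostate epithelium, 3 libraries came from cells transfected with a HOXA13 vector and 3 from cells given an eGFP plasmid. Both were collected 48 hours later by flow sorting, which kept the brightest 10% of cells by eGFP, with 3 flasks of each kind. A further 7 RWPE-1 libraries carried the edited deletion of the risk region, and 5 were wild-type controls of the same editing work. Nothing in the labels tells whether these came from separate clones or cultures, so p-values measure the spread between libraries, which may be technical. In C4-2B, a prostate cancer line derived from LNCaP and described as tetraploid in the labels, 3 deletion lines named m, ld9 and le5 were set against 3 wild-type control lines, with 3 libraries each. The deletion lines grew from single cells of 2 colonies edited again, so at least a pair of them share a colony. Hi-C samples of RWPE-1 were not analysed here.

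Claudins are membrane proteins whose extracellular loops join across neighbouring cells and set which ions pass between them. Occludin (OCLN) and JAM-A (F11R) sit in the same strands or beside them, and ZO-1 (TJP1) is the scaffold that ties these proteins to actin. Claudin 3, claudin 4 and claudin 7 are typical of simple epithelium such as the luminal layer of the prostate. Claudin 1 is prominent in stratified and basal cells, and claudin 11 is best known from myelin and from the Sertoli cell barrier of the testis.

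The levels are in TPM, which gives each gene's share of transcripts corrected for length, so genes can be compared with each other within a library. The TPM tables of RWPE-1 and C4-2B were normalized separately, and levels set across them are described without a test. The basal keratins KRT5 and KRT14 and the basal factor TP63 were present in every RWPE-1 library, with KRT5 at 2540.1 TPM or more. In C4-2B, KRT5 reached at most 0.14 TPM and TP63 at most 1.09 TPM, while KRT14 ran from 1.38 to 4.53 TPM. The targeted gene HOXA13 measured 684 to 842 TPM with the HOXA13 vector and 1.79 to 3.77 TPM with eGFP. It measured 5.27 to 10.1 TPM in RWPE-1 deletion libraries and 0.65 to 2.41 TPM in RWPE-1 controls.

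The promoters of 4 claudins whose levels differ between the lines or groups described below are shown first. Each runs from 250 bases before to 50 bases after the transcription start, 5′ to 3′ on the gene's strand, from RefSeq on GRCh38.p14. Capitals mark the E-box CAGGTG or its reverse complement CACCTG, which SNAIL and ZEB repressors bind, and the GC box GGGCGG or its reverse complement CCGCCC, which SP factors bind. CLDN7 is on the minus strand at chr17:7263164-7263463, CLDN4 on the plus strand at chr7:73830746-73831045, CLDN3 on the minus strand at chr7:73770221-73770520 and CLDN11 on the plus strand at chr3:170418618-170418917.
CLDN7: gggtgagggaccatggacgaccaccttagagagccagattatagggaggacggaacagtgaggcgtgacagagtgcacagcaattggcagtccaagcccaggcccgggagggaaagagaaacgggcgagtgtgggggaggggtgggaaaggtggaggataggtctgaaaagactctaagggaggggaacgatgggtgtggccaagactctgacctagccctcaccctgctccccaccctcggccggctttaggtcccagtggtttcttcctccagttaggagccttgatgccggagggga
CLDN4: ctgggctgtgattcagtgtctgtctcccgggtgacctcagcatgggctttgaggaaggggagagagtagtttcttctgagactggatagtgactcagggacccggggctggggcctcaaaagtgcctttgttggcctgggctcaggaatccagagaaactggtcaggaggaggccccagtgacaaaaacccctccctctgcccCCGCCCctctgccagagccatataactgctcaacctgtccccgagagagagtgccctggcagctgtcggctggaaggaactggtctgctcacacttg
CLDN3: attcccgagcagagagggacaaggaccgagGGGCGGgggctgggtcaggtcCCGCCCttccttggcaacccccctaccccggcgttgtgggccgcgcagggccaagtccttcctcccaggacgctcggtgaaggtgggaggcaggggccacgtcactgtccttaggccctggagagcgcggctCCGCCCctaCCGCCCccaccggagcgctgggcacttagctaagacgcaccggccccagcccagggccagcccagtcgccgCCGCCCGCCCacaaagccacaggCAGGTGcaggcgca
CLDN11: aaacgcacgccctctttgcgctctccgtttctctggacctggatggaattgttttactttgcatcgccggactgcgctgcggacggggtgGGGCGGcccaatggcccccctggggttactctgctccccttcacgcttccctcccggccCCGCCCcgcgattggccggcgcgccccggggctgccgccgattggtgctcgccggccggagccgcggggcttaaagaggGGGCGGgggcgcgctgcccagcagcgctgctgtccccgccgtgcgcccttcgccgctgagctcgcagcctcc

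Of 35116 RefSeq promoters of this length, 20.6% held the E-box and 45.0% held the GC box on either strand. The CLDN7 window held neither. For CLDN7 and CLDN11, 2 promoters each are listed, and only the most upstream was examined. The CLDN4 window held 1 GC box, and the CLDN11 window held 3. The CLDN3 window held 6 GC boxes, of which the 2 nearest the E-box overlap each other, and 1 E-box that begins 36 bases after the start. The windows of CLDN3 and CLDN11 were each 72% G and C, against 60% for CLDN7, 59% for CLDN4 and a median of 58.7% over all promoters. The grainyhead motif AACNNGTT (3.52% of promoters) and the TATA box TATAAA (11.5%) were in none of the 7 member promoters (all but F11R). A match describes letters in this window and no binding.

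The claudins differed between lines and groups, while ZO-1 and JAM-A were present throughout. CLDN7 ranged from 59.8 to 251 TPM over the C4-2B libraries, from 27.4 to 44.5 TPM over the sorted RWPE-1 libraries and from 2.33 to 10.1 TPM over the deletion and control libraries of RWPE-1. CLDN4 ranged from 16.4 to 137 TPM in C4-2B and did not exceed 4.00 TPM in RWPE-1. CLDN3 ranged from 16.3 to 83.7 TPM in C4-2B and was listed at 0 in all 12 deletion and control libraries of RWPE-1. CLDN1 and CLDN11 ran the other way, at no more than 0.32 and 0.87 TPM in C4-2B and up to 25.6 and 20.2 TPM in RWPE-1. TJP1 lay between 27.9 and 68.5 TPM in RWPE-1 and between 79.2 and 119 TPM in C4-2B. F11R lay between 30.8 and 58.6 TPM in RWPE-1 and between 22.4 and 52.7 TPM in C4-2B, and OCLN between 0.85 and 3.20 TPM in RWPE-1 and between 14.2 and 25.45 TPM in C4-2B.

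**Figure D1:**
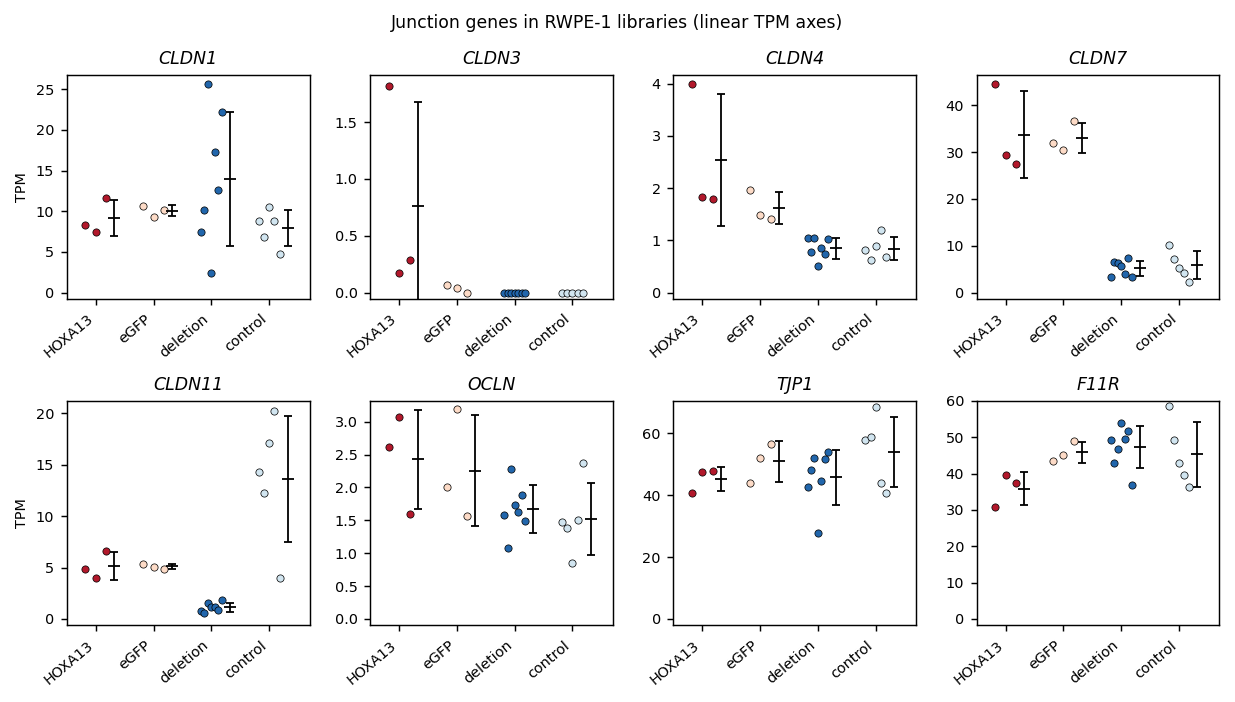
Level of each junction gene in every RWPE-1 library, in TPM on linear axes, by group (HOXA13 vector, eGFP plasmid, deletion, control). Points are libraries and the black bar beside them is the mean with SD, left out where a library is listed at 0. CLDN11 is at most 1.83 TPM in all 7 deletion libraries, and CLDN7 is at 27.4 TPM or more in the 6 sorted libraries only.

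CLDN11 was the only member called after deletion of the risk region in RWPE-1, and it fell. Of 6 members expressed highly enough to test, 1 was called, against 10.3% of all genes tested in this comparison. A gene was tested if it reached 1 TPM in as many libraries as the smaller group holds, and called at a limma adjusted p under 0.05 (Benjamini-Hochberg over all genes tested). CLDN3 and CLDN4 did not reach that level.

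CLDN11 measured 0.79, 0.59, 1.57, 1.12, 1.18, 0.89 and 1.83 TPM in the 7 deletion libraries, against 14.28, 12.28, 17.10, 20.24 and 4.02 TPM in the 5 controls. The groups did not overlap, and control library 5 was the lowest of the controls. The means were 1.14 ± 0.438 TPM (SD, n = 7) in deletion libraries and 13.6 ± 6.13 TPM (SD, n = 5) in controls, an 11.9-fold lower mean level. On the log2(TPM + 1) scale, which understates changes of low genes, the difference was -2.64 (SE 0.297, limma adjusted p 2.11e-04). In the authors' deposited table the log2 fold change was -2.55 with an adjusted p of 2.21e-21. CLDN11 was again the only member called there of 7 with an adjusted p, against 17.4% of all genes. Whether fold changes in the authors' deposited tables were shrunken is not stated, so their sizes cannot be set directly against those given here. In cell lines as in tissues, fewer cells with the transcript and less of it per cell cannot be told apart.

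CLDN1 varied more among the deletion libraries than between the groups. It had a lowest value of 2.40, a median of 12.58 and a highest value of 25.63 TPM in deletion libraries, against 8.75, 6.78, 10.54, 8.74 and 4.80 TPM in controls. The control values lay inside the range of the deletion values, and the log2 difference was 0.53 (SE 0.427, limma adjusted p 0.450). CLDN7 averaged 5.20 ± 1.64 TPM in deletion libraries and 5.85 ± 2.98 TPM in controls, with a log2 difference of -0.08 (SE 0.273). CLDN4 was low throughout, at 0.51 to 1.04 TPM in deletion libraries and 0.62 to 1.20 TPM in controls.

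The scaffold and the other membrane proteins did not pass the test either. TJP1 averaged 45.8 ± 8.95 TPM in deletion libraries and 54.0 ± 11.5 TPM in controls, a log2 difference of -0.23 (SE 0.166, limma adjusted p 0.391). F11R averaged 47.2 ± 5.74 TPM in deletion libraries and 45.3 ± 8.85 TPM in controls, a log2 difference of 0.07 (SE 0.119). OCLN averaged 1.67 ± 0.368 TPM in deletion libraries and 1.52 ± 0.546 TPM in controls, a log2 difference of 0.10 (SE 0.147, limma adjusted p 0.705). OCLN lies on chromosome 5 among genes that were lower as a group: of its 100 nearest tested neighbours 65 were called and 64 of those were lower in deletion libraries, with a median log2 difference of -0.43. With that neighbourhood median subtracted, OCLN differed by 0.50 (limma adjusted p 0.0310). The log2(TPM + 1) scale understates changes of low genes, so subtracting the full median can overcorrect a gene as low as OCLN. In the authors' deposited table OCLN had a log2 fold change of -0.12 with an adjusted p of 0.797. The neighbourhoods of the other 5 tested members had medians between -0.03 and 0.09. Around TJP1 single libraries spread more widely in the deletion group. Their neighbourhood medians, taken from the midpoint of the group means, ran from -0.43 to 0.11, against -0.07 to 0.05 in controls.

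Other junction genes moved in both directions in the deletion comparison. Of 15 other membrane proteins of the junction, 5 could be tested, with a median log2 difference of -0.46 against 0.05 over all genes. Of these 5, 3 were called, against 10.3% of all genes tested. BVES, an adhesion protein found at tight junctions, rose by 0.88 (SE 0.165), at 5.31 ± 0.978 TPM in deletion libraries and 2.49 ± 0.991 TPM in controls. LSR, which recruits tricellulin to corners where cells meet, fell by 1.46 (SE 0.395), but its call was lost with no filter on low values and when any of 8 libraries was left out.

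Adherens junction and desmosome genes gave 4 calls of 20 tested, against 10.3% of all genes, with a median of 0.02. E-cadherin (CDH1), which holds epithelial cells together below the tight junction, fell by 1.70 (SE 0.348, limma adjusted p 0.00891). It measured 0.72 to 3.17 TPM in deletion libraries and 2.71 to 16.3 TPM in controls, and the ranges overlapped. The catenin CTNNA1, which links cadherins to actin and lies on the same chromosome as OCLN, averaged 215 ± 10.4 TPM in deletion libraries and 303 ± 30.6 TPM in controls, and fell by 0.49 (SE 0.0642). PKP2, a desmosome plaque protein, fell by 0.42 (SE 0.0896), and AFDN (afadin), which joins nectins to actin, rose by 0.71 (SE 0.113). None of 21 scaffold and polarity genes, none of 6 repressors of junction genes and neither of 2 other claudins was called, with medians of 0.04, 0.04 and 0.18. Of 7 epithelial activators 2 were called, against 10.3% of all genes, with a median of 0.03. Between 0 and 3 were called in the alternative fits. KLF5 rose by 0.48 (SE 0.0969). EHF rose by 1.14 (SE 0.335) and lost its call with no filter, with another scaling and in 10 of 12 fits without a library.

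With HOXA13 overexpression no member passed the test. None of 7 tested members was called by limma, against 0.0135% of all genes, which is 2 genes of 14814, while 2002 genes had an unadjusted p under 0.05. F11R came nearest among the members, at 30.79, 39.49 and 37.30 TPM with HOXA13, against 43.46, 45.07 and 48.89 TPM with eGFP. Its groups did not overlap, and the log2 difference was -0.35 (SE 0.108, limma adjusted p 0.280). CLDN11 averaged 5.15 ± 1.35 TPM with HOXA13 and 5.11 ± 0.241 TPM with eGFP (SD, n = 3 each), a log2 difference of -0.01 (SE 0.173). CLDN1 differed by -0.14 (SE 0.164), TJP1 by -0.16 (SE 0.114) and OCLN by 0.08 (SE 0.249). In the authors' deposited table of the overexpression, 0 of 6 members with an adjusted p were called, against 12.1% of all genes.

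The luminal claudins were highest in library 1 of the HOXA13 group. CLDN3 measured 1.82, 0.17 and 0.29 TPM with HOXA13, against 0.07, 0.04 and 0.00 TPM with eGFP. CLDN4 measured 4.00, 1.83 and 1.79 TPM with HOXA13, against 1.96, 1.49 and 1.40 TPM with eGFP, and its log2 difference was 0.39 (SE 0.255, limma adjusted p 0.539). CLDN7 measured 44.47, 29.34 and 27.40 TPM with HOXA13, against 32.06, 30.39 and 36.58 TPM with eGFP. Its log2 difference was 0.00 (SE 0.181), and -0.21 without library 1 of the HOXA13 group. Luminal prostate markers were high in the same library: FOXA1 measured 25.44, 2.66 and 3.45 TPM with HOXA13, against 1.54 to 1.63 TPM with eGFP. Likewise the luminal marker SLC45A3 measured 18.53, 2.77 and 5.43 TPM with HOXA13, against 2.41, 2.83 and 2.36 TPM with eGFP. Of the 8 luminal markers 6 had a mean of at least 1 TPM with HOXA13 and 4 with eGFP, and their summed level was 842 to 1180 TPM with HOXA13 and 864 to 952 TPM with eGFP. Their part in the claudin values was not tested.

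The CLDN11 difference in the deletion comparison was unlike that in the HOXA13 comparison. In a fit over all 18 RWPE-1 libraries, the deletion difference minus the HOXA13 difference was -2.63 (SE 0.457, limma adjusted p 0.00533), and it stayed called in all 18 fits that left out a library. CLDN11 was the only member called of 7 tested, against 4.11% of all genes. The comparisons also differ in transfection, in sorting and possibly in culture and time, which cannot be told apart from the deletion and the vector. Their controls differ too, with a mean CLDN11 of 13.6 TPM in unsorted controls and 5.11 TPM in eGFP cells. HOXA13 itself rose in both comparisons, by 2.09 (limma adjusted p 9.76e-05) in deletion libraries and by 7.70 (limma adjusted p 1.29e-05) with the vector.

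**Figure D2:**
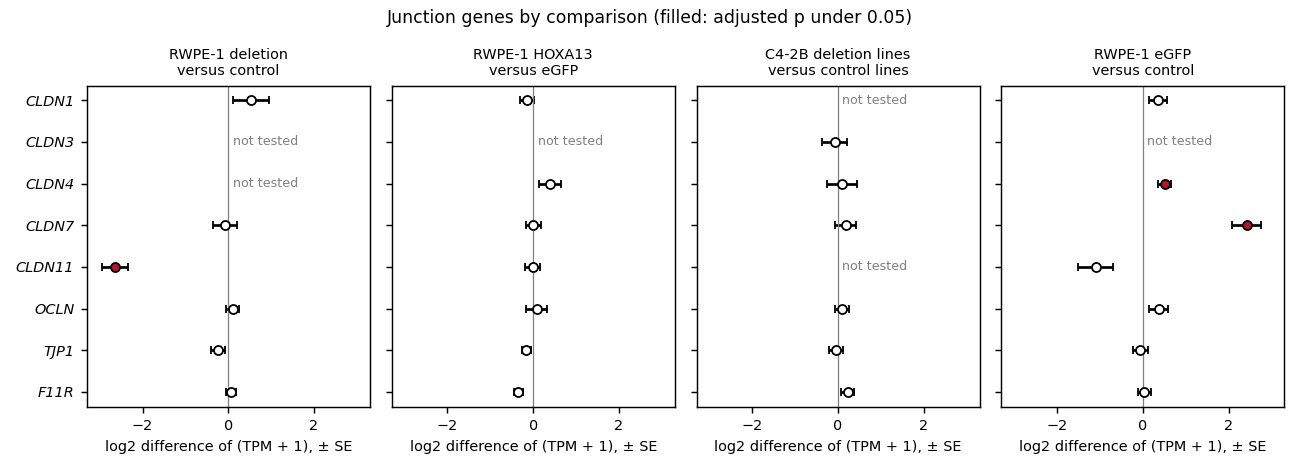
Difference of each junction gene in 4 comparisons, on the log2(TPM + 1) scale with its standard error, the first-named group minus the second. Filled points passed an adjusted p of 0.05: CLDN11 at -2.64 in the deletion comparison, and CLDN4 and CLDN7 at 0.51 and 2.42 between eGFP and control libraries.

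CLDN7 and CLDN4 differed between the sorted eGFP cells and the unsorted controls of the deletion. These libraries differ in transfection, in sorting and possibly in culture and time, which cannot be told apart, and 47.1% of all genes were called between them. Of 7 members tested 2 were called, both higher in eGFP cells. CLDN7 measured 32.06, 30.39 and 36.58 TPM in eGFP cells, against 10.14, 7.20, 5.33, 4.25 and 2.33 TPM in controls. Every eGFP library was above every control, a 5.64-fold higher mean level, and the log2 difference was 2.42 (SE 0.338, limma adjusted p 6.00e-04). CLDN4 measured 1.96, 1.49 and 1.40 TPM in eGFP cells, against 0.82, 0.62, 0.89, 1.20 and 0.69 TPM in controls, a log2 difference of 0.51 (SE 0.146, limma adjusted p 0.0195). That call was lost without library 1 of eGFP (limma adjusted p 0.0924). CLDN4 passed the filter through its eGFP libraries, since most controls were under 1 TPM.

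CLDN11 was lower in eGFP cells but just missed the threshold. It measured 5.36, 5.09 and 4.88 TPM in eGFP cells, inside the range of the controls given above, with a log2 difference of -1.11 (SE 0.412, limma adjusted p 0.0536). Without control library 5 it was called, at -1.45 (limma adjusted p 4.50e-04). CLDN1 differed by 0.34 (SE 0.208), OCLN by 0.37 (SE 0.222), TJP1 by -0.07 (SE 0.175) and F11R by 0.03 (SE 0.148), and none passed the test. ELP5, which overlaps CLDN7 in the genome, differed by 0.20 (SE 0.0967, limma adjusted p 0.114), and whether reads were counted by strand is not stated.

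Genes that accompany claudin 7 in epithelium were higher in eGFP cells as well. Of 8 other junction membrane proteins tested, 6 were called, against 47.1% of all genes. All 6 were higher, and the median of the 8 was 0.81 against 0.02 over all genes. EPCAM and MARVELD3 passed the filter through eGFP libraries alone, with control means of 0.146 and 0.07 TPM. Such genes can hardly come out lower, so this count and median are partly set by the filter. EPCAM, which binds claudin 7 in the membrane, measured 19.52, 14.90 and 16.95 TPM in eGFP cells, against 0.05, 0.08, 0.09, 0.36 and 0.15 TPM in controls, a log2 difference of 3.98 (SE 0.139). MARVELD3, a relative of occludin, averaged 4.79 ± 0.568 TPM in eGFP cells and was at or under 0.21 TPM in controls, a log2 difference of 2.44 (SE 0.130). LSR averaged 40.2 ± 0.439 TPM in eGFP cells and 9.03 ± 7.52 TPM in controls, a log2 difference of 2.34 (SE 0.519). MARVELD2, which encodes tricellulin, rose by 0.57 (SE 0.168), but lost its call in 2 of 3 fits without an eGFP library. Between 3 and 7 genes of that list were called in the alternative fits. CLDN15 rose by 0.98 (SE 0.165), 1 of 2 other claudins tested.

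Genes listed as epithelial activators were mostly higher and repressors were split. That list holds the protease ST14 and the splicing regulator ESRP1 beside factors such as ELF3. Of 14 listed activators tested, 12 were called, against 47.1% of all genes, and 11 of them were higher in eGFP cells. The median of the 14 was 1.36, and 9 to 13 were called in the alternative fits. The filter also admits genes that reach 1 TPM in eGFP libraries alone, and these can hardly come out lower. ST14, ESRP1, ELF3 and FOXA1 entered this way, with control means of at most 0.46 TPM, as did the repressor SNAI1 at 0.276 TPM. The direction and median of the list are therefore partly set by the filter. The membrane protease ST14 (matriptase) rose by 3.40 (SE 0.107) and the splicing regulator ESRP1 by 3.12 (SE 0.123). The factors ELF3, KLF4 and FOXA1 rose by 2.90 (SE 0.260), 2.67 (SE 0.211) and 1.35 (SE 0.110). KLF4 averaged 337 ± 30.7 TPM in eGFP cells and 53.5 ± 12.7 TPM in controls. GRHL2, a known activator of claudin genes that was named after its values were seen, measured 5.01, 1.65 and 3.05 TPM in eGFP cells and at most 0.02 TPM in controls. GRHL3 fell by 0.77 (SE 0.254), but lost its call in each fit that left out an eGFP library. Of 7 repressors tested, SNAI1 rose by 2.53 (SE 0.154), SNAI2 rose by 0.61 (SE 0.133) and ZEB1 fell by 0.59 (SE 0.162), though ZEB1 lost its call without eGFP library 1 or 2. Their median was 0.09.

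Scaffold, polarity and adherens genes called between eGFP cells and controls were split in direction. Of 23 scaffold and polarity genes 10 were called, a share no higher than the 47.1% of all genes, with 5 higher and 5 lower and a median of 0.01. The polarity protein CRB3 rose by 2.57 (SE 0.135), AMOTL2 by 1.85 (SE 0.143), the RhoA activator ARHGEF2 by 0.76 (SE 0.152), SYMPK by 0.47 (SE 0.0955) and YBX3, a factor held at junctions by ZO-1, by 0.46 (SE 0.0749). The polarity and scaffold genes PARD6G, PARD3, MAGI3, MAGI1 and PALS1 fell by 0.72, 0.66, 0.59, 0.50 and 0.39, and MAGI1 and PALS1 lost their calls without eGFP library 2. Of 21 adherens junction and desmosome genes 13 were called, against 47.1% of all genes, with 6 higher and 7 lower and a median of 0.04. NECTIN4 rose by 2.03 (SE 0.173) and NECTIN2 by 0.91 (SE 0.0782). NECTIN4 and CRB3, with control means of 0.512 and 0.148 TPM, passed the filter through eGFP libraries alone. CDH1 rose by 1.54 (SE 0.447), but lost its call when any eGFP library was left out. The desmosome plaque proteins PPL and PKP2 fell by 2.40 (SE 0.177) and 1.29 (SE 0.0958). The basal markers summed to 7199 to 7592 TPM in eGFP cells and 9350.4 to 17202 TPM in controls, and the luminal markers to 864 to 952 TPM in eGFP cells and 328 to 693 TPM in controls, and their part in these differences was not tested.

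**Figure D3:**
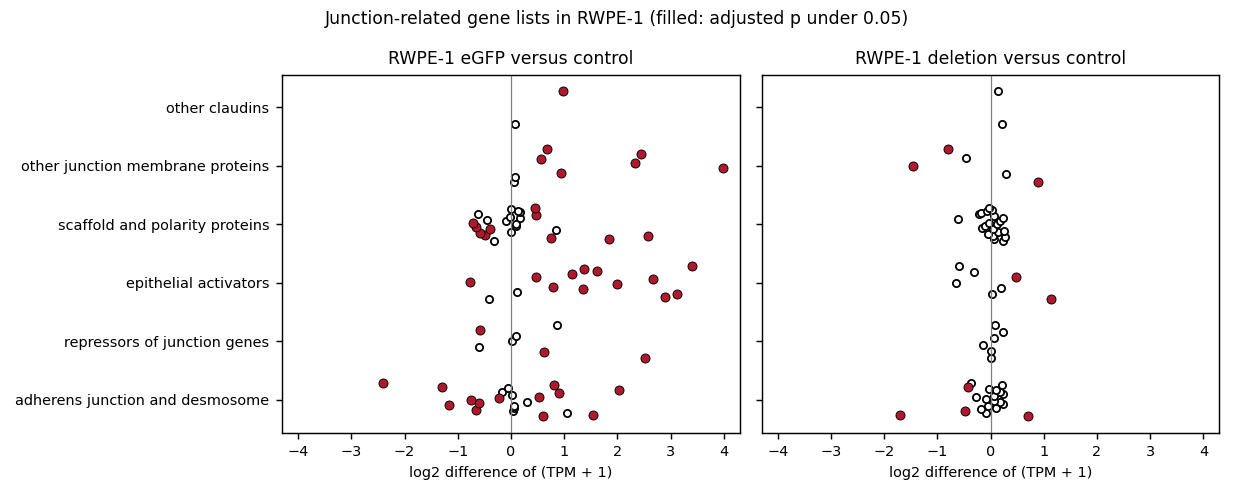
Difference of each tested gene of 6 junction-related lists on the log2(TPM + 1) scale, between eGFP and control libraries of RWPE-1 and between deletion and control libraries. Filled points passed an adjusted p of 0.05. For epithelial activators these were 12 of 14 and 2 of 7 genes, against 47.1% and 10.3% of all genes. These counts cover different genes, since a gene expressed in eGFP cells alone was tested only between eGFP and control.

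In C4-2B no member passed the test between the deletion lines and the control lines. The 3 libraries of a line were averaged, so that 3 lines were compared with 3. None of 6 tested members was called by limma, against 0% of all genes: 0 of 14821 passed, 529 had an unadjusted p under 0.05, and 19 passed with libraries as samples and line as a random block. HOXA13 averaged 0.964 ± 0.0246 TPM over deletion lines and 1.28 ± 0.427 TPM over control lines (SD, n = 3 each), with a log2 difference of -0.19 (SE 0.179).

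CLDN7 was the most abundant member, at 212 ± 5.73 TPM over the deletion lines and 200 ± 55.5 TPM over the control lines (SD, n = 3 lines each). Its log2 difference was 0.18 (SE 0.242). CLDN4 averaged 100.5 ± 3.87 TPM over deletion lines and 107 ± 40.5 TPM over control lines, a log2 difference of 0.09 (SE 0.359). CLDN3 averaged 58.6 ± 9.44 TPM over deletion lines and 67.0 ± 20.9 TPM over control lines, a log2 difference of -0.08 (SE 0.291). For each of these claudins the control lines spread more widely than the deletion lines. F11R differed by 0.23 (SE 0.153), OCLN by 0.09 (SE 0.163) and TJP1 by -0.04 (SE 0.163), and the limma adjusted p was 0.993 for all 6. F11R was the only member called of 6 in the authors' deposited table, with a log2 fold change of 0.21 and an adjusted p of 0.0181, against 8.56% of all genes. Which libraries or lines served as replicates in that table is not stated.

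**Figure D4:**
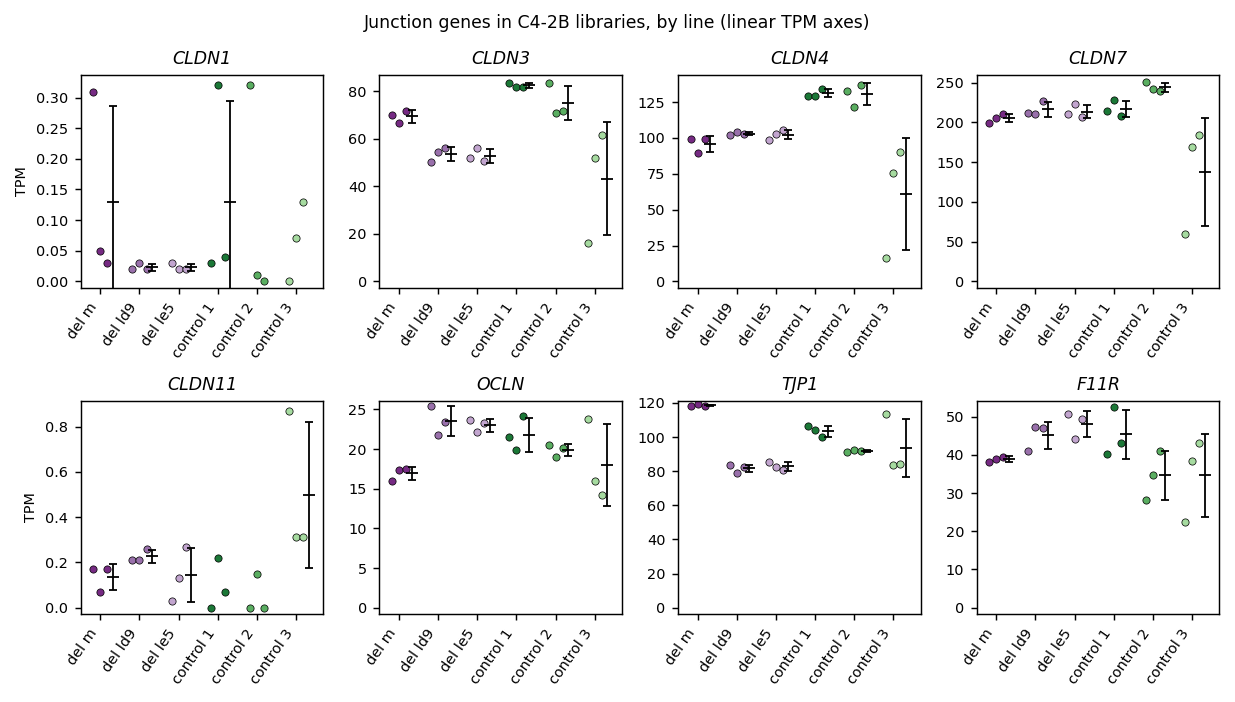
Level of each junction gene in every C4-2B library, in TPM on linear axes, by line (deletion lines m, ld9 and le5, then control lines 1, 2 and 3). Points are libraries and the black bar is the mean with SD, left out where a library is listed at 0. TJP1 is near 119 TPM in line m and at most 85.6 TPM in lines ld9 and le5, and library 1 of control line 3 is the lowest for CLDN3, CLDN4 and CLDN7.

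Library 1 of control line 3 stood apart from the other C4-2B libraries. Mitochondrial genes made up 28.4% of its TPM, against 10.8% to 16.6% in the others, and it was the lowest of all 18 for CLDN3, CLDN4, CLDN7 and F11R, at 16.28, 16.43, 59.80 and 22.43 TPM. TJP1 went the other way there, at 113.28 TPM, against 83.46 and 84.35 TPM in the other libraries of that line. Without that library the log2 difference between deletion and control lines was -0.16 for CLDN4 and 0.00 for TJP1, and no member was called. The luminal marker sum of control line 3 was 1900.3 to 3814 TPM, against 4429.9 to 5697 TPM in control lines 1 and 2.

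TJP1 separated the deletion lines from each other. Line m had 118.30, 119.13 and 118.50 TPM, line ld9 had 83.38, 79.21 and 82.46 TPM and line le5 had 85.59, 82.35 and 80.48 TPM. Line m was above both other lines in every library, while ld9 and le5 overlapped, and the largest log2 difference among the 3 lines was 0.53 (limma F test, adjusted p 0.00288). TJP1 was the only member called of 6, against 5.5% of all genes, and its call was lost when libraries were scaled by median ratios (limma adjusted p 0.0765). OCLN ran the other way, at 16.9 ± 0.838 TPM in line m, 23.5 ± 1.83 TPM in line ld9 and 23.0 ± 0.819 TPM in line le5 (SD, n = 3 each). The limma adjusted p of OCLN was 0.106, and 0.00121 without library 1 of control line 3, which shares its spread with this fit. CLDN3 was 69.5 ± 2.73 TPM in line m, 53.6 ± 2.99 TPM in line ld9 and 52.8 ± 2.83 TPM in line le5, and was called only without that library (limma adjusted p 0.00249). CLDN4 and CLDN7 spread little, between 96.0 and 103 TPM and between 205 and 217 TPM over the means of the 3 lines.

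Few other junction genes were called among the deletion lines. Calls were made for 1 of 27 scaffold and polarity genes, 1 of 15 activators and 3 of 18 adherens junction and desmosome genes, and for none of 4 other claudins, 11 other membrane proteins or 3 repressors, against 5.5% of all genes, so these lists together were near the background. Without library 1 of control line 3 the first 3 of these counts were 4, 5 and 7. That fit called 3184 genes in all, against 892 of 16225 with every library, so its background was higher too. NECTIN3, an adhesion protein of adherens junctions, averaged 8.90 ± 1.21 TPM in line m, 4.41 ± 0.353 TPM in line ld9 and 3.36 ± 0.399 TPM in line le5 (limma F test, adjusted p 2.76e-04). The desmosomal cadherin DSG2 averaged 48.3 ± 2.81 TPM in line m, 69.4 ± 1.54 TPM in line ld9 and 53.6 ± 1.31 TPM in line le5 (adjusted p 9.20e-04 by the same limma test). ST14 averaged 63.7 ± 1.73, 47.3 ± 0.356 and 45.8 ± 0.361 TPM in lines m, ld9 and le5 and lost its call when any library of line m was left out.

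The control lines differed more, and their claudins moved together. CLDN3 averaged 82.5 ± 1.05, 75.2 ± 7.11 and 43.2 ± 23.8 TPM in control lines 1, 2 and 3. CLDN4 averaged 131 ± 2.91, 130.5 ± 7.67 and 60.7 ± 39.1 TPM, and CLDN7 averaged 217 ± 10.1, 244 ± 5.63 and 138 ± 67.8 TPM in the same order. These 3 members of 6 were called, with limma adjusted p values of 0.0220, 0.0172 and 0.0247 in an F test, against 35.7% of all genes. CLDN7 lost its call with no filter on low values (0.0538) and with median-ratio scaling (0.0541). Each library of control line 3 was below each library of control lines 1 and 2 for these 3 claudins. Without its library 1, all 6 tested members were called among the control lines. That fit called 6406 genes in all, against 5798 of 16225 with every library.

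The order of the groups differed from member to member. In RWPE-1, CLDN7 and CLDN4 had the order HOXA13, eGFP, then the unsorted groups, with no overlap between eGFP and deletion or control libraries. For CLDN11 the order was control, HOXA13, eGFP and deletion, and only deletion was free of overlap with its neighbour. For CLDN1, OCLN, TJP1 and F11R each group overlapped the next in the order of their means. In C4-2B, CLDN4 was highest in control lines 1 and 2, at 131 and 130.5 TPM, with no overlap with deletion line ld9 below them at 103 TPM.

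The makeup of the claudin transcripts differed between groups accordingly. The summed TPM of all claudins was 92.1 ± 4.53 with HOXA13, 83.5 ± 3.38 with eGFP, 52.8 ± 8.24 in deletion libraries and 55.8 ± 8.89 in controls. CLDN12, a widely expressed claudin, made up 55.3% ± 10.5 of that sum in deletion libraries and 45.3% ± 11.6 in controls. CLDN11 made up 2.12% ± 0.606 in deletion libraries and 23.5% ± 8.80 in controls, and CLDN1 25.2% ± 12.0 in deletion libraries and 14.0% ± 2.02 in controls. CLDN7 made up 36.4% ± 8.28 with HOXA13, 39.5% ± 2.20 with eGFP, 9.94% ± 3.19 in deletion libraries and 10.4% ± 5.14 in controls. In C4-2B, CLDN7 took 46.4% to 48.5% in the means of the deletion lines and 42.5% to 45.9% in those of the control lines. CLDN4 took 21.7% to 23.2% and 18.5% to 25.7%, and CLDN3 11.9% to 15.7% and 14.0% to 16.2%, in the deletion and control lines in that order. The sum was 440.4 to 451 TPM in the deletion lines, and 510.15, 537 and 299 TPM in control lines 1, 2 and 3. These shares were not tested.

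**Figure D5:**
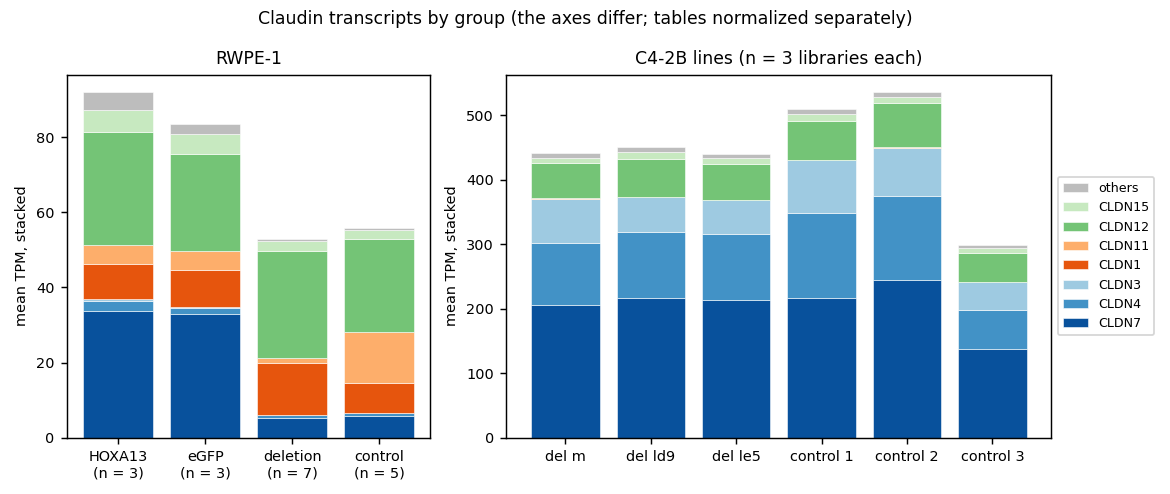
Mean level of claudin transcripts by group, stacked, in TPM. The left panel shows RWPE-1 groups and the right panel C4-2B lines, on different axes. CLDN11 makes up 23.5% of the sum in RWPE-1 controls and 2.12% in deletion libraries, and CLDN7 is the main claudin of every C4-2B line.

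The genes whose levels ran most like each member were taken by Pearson's r of log2(TPM + 1) over the 18 libraries of a table, as a description, since libraries of a group share their treatment. In RWPE-1, CLDN7 ran closest to PTGS1 (r = 0.97), UNC93B1 (0.97) and WARS1 (0.97), and CLDN4 to HAX1 (0.94), SLC45A3 (0.92) and MCOLN1 (0.92). CLDN11 ran closest to STOM (0.91), VDAC1 (0.91) and CANX (0.90), and OCLN to NIBAN1 (0.85), COMMD9 (0.84) and PRUNE1 (0.83). CLDN1, TJP1 and F11R were led by NID2 (0.78), MORF4L1 (0.78) and ARL6IP6 (0.82). In C4-2B, CLDN3, CLDN4 and CLDN7 were led by HDHD5 (0.99), RCC2 (0.99) and ACTR1B (0.99), values that include library 1 of control line 3. TJP1, OCLN and F11R were led there by ZNF91 (0.94), SRP72 (0.89) and TP53RK (0.91).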

How the data were processed

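Per the submitters' processing notes, the build was GRCh37 and the tools named, with no role or order given, included DESeq2 1.14.1, RSEM 1.3.0, STAR 2.5.2b, featureCounts 1.5.1, Trimmomatic 0.35 and FastQC. Which tool made each table, and whether reads were counted by strand, is not given in the sources used here. The authors deposited TPM for 60252 genes in 2 tables of 18 libraries, normalized separately. Since TPM is not a count, library depth is unknown and no counting interval was computed. The authors' deposited comparison tables give, per the file headers, an adjusted p-value, the log2 fold change, a standard error held as a score and a signal, the mean of normalized counts over the libraries compared.

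Of the gene IDs, 55487 matched a symbol. TPM was analysed as log2(TPM + 1) with limma 3.58.1 in R 4.3.3 (lmFit, eBayes with trend, two-sided), with adjustment over all genes tested. Genes under 1 TPM in too many libraries were not tested: the number at 1 TPM or more had to match the size of the smaller group. HOXA13 was always kept. C4-2B libraries were averaged by line, and lines from a shared colony were treated as independent. Differences among C4-2B lines were F tests over all 18 libraries. The fits were tested on simulated data.

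All 8 members are named, with HOXA13, up to 5 called genes of lowest p per list and direction, and the 3 genes of highest r per member. Some genes that this rule or the marker lists would name are not reported here. The members and lists were chosen with earlier results of these data known. Alternatives were another pseudocount, no filter, median-ratio scaling, a replicate block, other sets of libraries, each library or line left out and a neighbourhood median of 50 genes on each side subtracted. Neighbours and promoters came from RefSeq tables of GRCh38.p14, and where a gene had several promoters the most upstream was used.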

Additional observations from a re-analysis of the deposited data

Results flagged for a closer look

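HOXA13 in control library 4 of RWPE-1 was 2.41 TPM, far from the 0.65 to 0.92 TPM of the other 4 controls, by Dixon's test at 95%. Of 16 groups examined this way, chance alone flags about 1 in 20. In that library CLDN11 was the highest of the controls, at 20.24 TPM. The CLDN11 difference in the deletion comparison minus that in the HOXA13 comparison was -2.63 on the log2(TPM + 1) scale (SE 0.457, limma adjusted p 0.00533). The comparisons also differ in transfection, sorting and the CLDN11 level of their controls, which cannot be told apart from the deletion and the vector.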

How the results depend on the processing

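The fall of CLDN11 in RWPE-1 deletion libraries was called in every alternative fit, at -2.99 to -2.47 without a library. In RWPE-1, the genes called between deletion and control numbered 449 with the replicate block, against 1464, and 2 members were called with the neighbourhood median subtracted (CLDN11 and OCLN). Same-numbered libraries were not shown to be pairs: the correlation of their deviations passed 0.1 in 1 of 5 pairs of deletion and control libraries, in 0 of 3 pairs of both other RWPE-1 comparisons and in 0 of 45 pairs of C4-2B libraries. With that block KLF5, AFDN and PKP2 had limma adjusted p values of 0.0723, 0.0623 and 0.0680 in the deletion comparison, and MAGI1 and PALS1 of 0.0634 and 0.105 between eGFP and control. With it CLDN4 lost its call between eGFP and control (limma adjusted p 0.0548) and CLDN11 gained one (0.00763), as it did with all 18 libraries in one fit (0.00957).

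Between HOXA13 and eGFP, 1 gene was called without the filter, 1 with the replicate block, 131 with all 18 libraries in one fit and 1 to 5 without a library. In C4-2B, 6 genes were called without the filter, 19 with line as a random block, 8 when the replicate block was added and 0 to 7 without a line or without library 1 of control line 3. Leaving out a library gave 1 to 3 members between eGFP and control, 408 to 3184 genes and 1 to 3 members among deletion lines, where 3184 and 3 came without library 1 of control line 3, an alternative added after the data were seen, and 3 to 6 members among control lines. With median-ratio scaling 0 members were called among deletion lines. The difference of effects was called for 293 genes with the replicate block and for 290 to 1103 without a library. With median-ratio scaling 46.2% of the calls between deletion and control were higher, against 62.6%.

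Differences of members that were not called changed sign in some fits. In the deletion comparison the fits without a library gave -0.31 to 0.13 for CLDN7, -0.0048 to 0.21 for OCLN and -0.0031 to 0.17 for F11R. Between HOXA13 and eGFP they gave -0.21 to 0.13 for CLDN7, -0.18 to 0.12 for CLDN11 and -0.077 to 0.28 for OCLN, and CLDN7 was -0.037 with median-ratio scaling and -0.10 with the neighbourhood subtracted, while CLDN11 was 0.089 with the neighbourhood subtracted. In C4-2B, fits without a whole line or without library 1 of control line 3 gave -0.43 to 0.13 for CLDN3, -0.38 to 0.33 for CLDN4, -0.12 to 0.37 for CLDN7 and -0.22 to 0.048 for TJP1. Between eGFP and control, fits without a library gave -0.039 to 0.13 for F11R and -0.16 to 0.036 for TJP1. F11R was -0.0069 with median-ratio scaling, -0.12 with the replicate block and -0.050 with the neighbourhood subtracted, and TJP1 0.11 with the last. The cause of these shifts was not tested, and depth cannot be read from TPM.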
